A study of Mus musculus with 30 samples.

Results

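The cells described here are CD8 T cells of tumours whose T cell receptor was shared by at least 5 sequenced cells of the same library. A clone was a set of cells of 1 library with the same productive alpha and beta CDR3 nucleotide sequences, the CDR3 being the junction of rearranged gene segments that contacts the antigen. A cell was kept when its clone held 5 or more cells, when its 16-base barcode was found in the RNA library of the same tumour model and treatment, and when it had at least 1 UMI (a counted transcript molecule) of Cd8a or Cd8b1. It also had to have no UMI of Foxp3 and no alpha chain with the J segment TRAJ7. The rule left 2150 cells, out of 13773 cells with both receptor chains and 29768 barcodes in the RNA libraries. They were compared with 2750 CD8 T cells that passed the same gates and whose receptor was found in 1 cell, called single-receptor cells below. Clone size and the transcripts of Cd8a, Cd8b1 and Foxp3 chose the cells, so these values are given as a description with no test.

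The tumours were mouse oral squamous carcinoma models grown in C57BL/6J mice: MOC1, MOC22 and MOC1E1, which some labels call MOC1esc1. Mice had received isotype control, anti-PD-1 or anti-CTLA-4 antibody by intraperitoneal injection on days 3, 6 and 9 after inoculation. MOC1 and MOC1E1 had all 3 treatments, and MOC22 libraries held isotype and anti-PD-1 only. Each of these 8 conditions had 1 RNA library and 1 receptor library, made with the droplet kits of 10x Genomics from tumour T cells (MOC1 RNA, MOC22) or tumour immune cells (MOC1 receptors, MOC1E1), and nothing in the labels says whether mice were pooled. A test across libraries therefore measures the spread between libraries of different models and treatments, each combination seen in 1 library. Where large-clone and single-receptor cells are compared within libraries, the spread is that of their difference from library to library.

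A T cell that recognises antigen divides, and its daughters inherit the same rearranged receptor, so cells with an identical receptor descend from 1 precursor in most cases. Clonally expanded CD8 T cells in tumours commonly lose transcripts of lymph node homing and quiescence, gain those of killing, and under lasting stimulation gain inhibitory receptors such as PD-1, TIM-3 and LAG-3. Antibodies against PD-1 and CTLA-4 block inhibitory receptors of T cells.

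The libraries were matched by barcode. Of the barcodes with a productive chain, 97.9 to 99.2% in MOC1, 81.6 to 88.6% in MOC1E1 and 96.1 to 97.3% in MOC22 were found again in the RNA library matched by model and treatment, and at most 0.912% in any other. For MOC22 the 2 receptor samples are described with their tables exchanged. Each table was assigned by its own name, since its barcodes match that treatment. Pairs of RNA libraries shared 7 to 35 barcodes.

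The large clones lay in every library and in very different numbers. There were 167 of them, with 13, 23 and 59 clones in MOC1 isotype, then anti-PD-1, then anti-CTLA-4, 1, 3 and 12 in MOC1E1 in the same order, and 14 and 42 in MOC22 isotype and anti-PD-1. In MOC1, 115 of 633 gated CD8 T cells belonged to large clones with isotype (18.2%, exact Clopper-Pearson 95% interval 15.2 to 21.4%). Anti-PD-1 gave a share of 39.4% (36.5 to 42.3%). Anti-CTLA-4 gave one of 44.6% (42.2 to 47.0%). In MOC1E1 it was 6.11% (2.67 to 11.7%, 8 of 131 cells) with isotype and 8.43% (5.36 to 12.5%, 22 of 261) with anti-PD-1. With anti-CTLA-4 it was 31.7% (26.6 to 37.2%, 98 of 309). In MOC22 it was 20.2% (17.4 to 23.4%, 146 of 721) with isotype and 58.0% (54.9 to 61.0%, 588 of 1014) with anti-PD-1. In each model the share was highest in an antibody-treated library, and in MOC1E1 the isotype and anti-PD-1 intervals overlap. That overlap is for cells without TRAJ7 alpha chains. Their exclusion bore unequally on these libraries. In MOC1E1 anti-PD-1 it took large-clone cells from 119 to 22 and single-receptor cells from 212 to 191. In MOC1E1 isotype large-clone cells stayed at 8 and single-receptor cells went from 115 to 111. Shares with TRAJ7 cells kept were not computed. Intervals cover counting error only and count cells of 1 clone as independent. Clone size was read in samples of 476 to 3104 cells with both chains, so 5 cells are a larger share of a MOC1E1 library than of a MOC1 library.

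How evenly the cells were spread over clones also differed. The largest clone held 174 of 433 members in MOC1 anti-PD-1 (40.2%), 72 of 740 in MOC1 anti-CTLA-4 (9.73%) and 60 of 588 in MOC22 anti-PD-1 (10.2%). It held 21 cells in MOC1 isotype (18.3%), 37 in MOC22 isotype (25.3%), 19 in MOC1E1 anti-CTLA-4 (19.4%) and 9 in MOC1E1 anti-PD-1 (40.9%). The 8 members of the MOC1E1 isotype library were all of 1 clone. The 3 largest clones together made up 56.6% of members in MOC1 anti-PD-1 against 21.6% in MOC1 anti-CTLA-4. Of the 167 clones, 23 had a second alpha chain, and the clones used 149 distinct sets of beta chains over all libraries, 2 clones of MOC1 anti-CTLA-4 having 2 beta chains, so some beta sequences lay in more than 1 clone of a library, with different sets of alpha chains detected. The exclusion of TRAJ7 alpha chains took the members from 522 to 433 in MOC1 anti-PD-1, from 818 to 740 in MOC1 anti-CTLA-4, from 119 to 22 in MOC1E1 anti-PD-1, from 226 to 98 in MOC1E1 anti-CTLA-4 and from 856 to 588 in MOC22 anti-PD-1. The requirement of no Foxp3 UMI took them from 197 to 146 in MOC22 isotype.

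**Figure D1:**
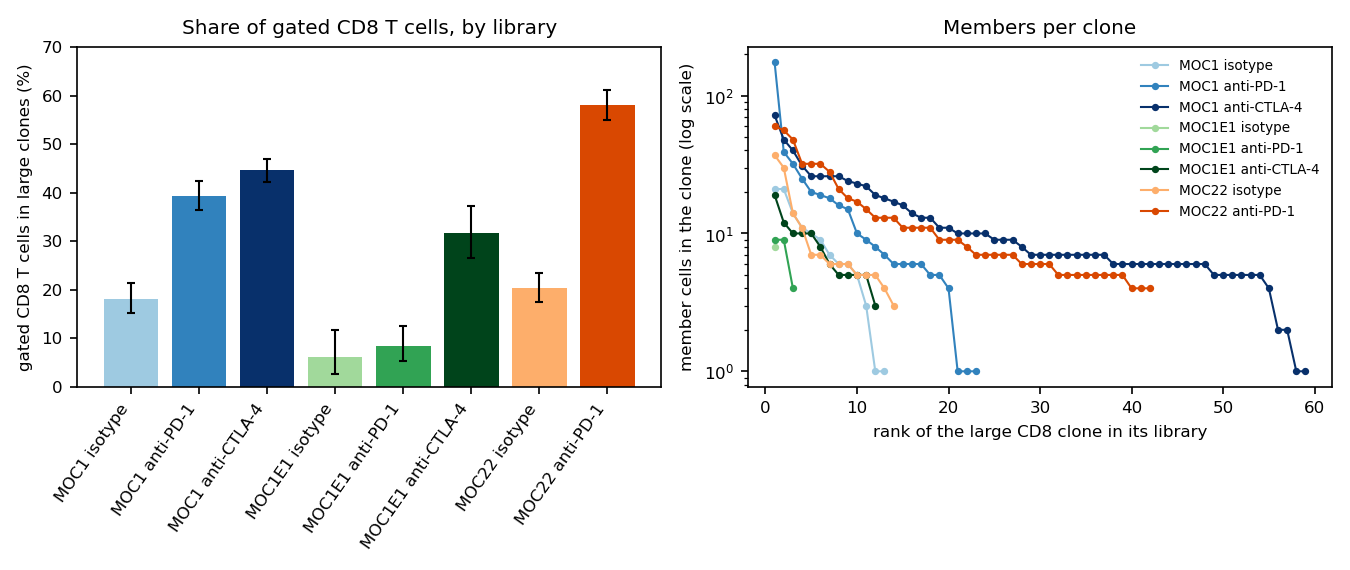
Left, percent of gated CD8 T cells in large clones in each of the 8 libraries, with exact 95% intervals. Right, member cells of each large clone on a log scale against its rank in its library. MOC22 anti-PD-1 has the highest share (58.0%), and the largest clone of MOC1 anti-PD-1 stands apart at 174 cells.

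No receptor was a large clone in more than 1 library: 3 of the 167 clones had an identical receptor elsewhere, each in 1 cell that was not a member. Beta chains with the same translation did recur among large clones of different libraries, in 4 groups. Their nucleotide sequences, from the deposited receptor tables, are shown because they tell apart the same nucleotide rearrangement from different rearrangements that encode 1 protein loop. All are 5′ to 3′ from the start of the CDR3, and capitals mark positions at which the sequences of a group differ. Group A had 1 beta sequence, built from TRBV1 and TRBJ1-1, in the 174-cell MOC1 anti-PD-1 clone, in the 31-cell MOC1 anti-CTLA-4 clone and in 3 smaller clones (19 and 10 members with anti-PD-1, 9 with anti-CTLA-4). The 174-cell and 31-cell clones have TRAJ15 alpha chains, with the V segments TRAV7N-4 and TRAV7-4. These CDR3s differ by T8C, counted from 1 at the first base, and in translation. The 19-cell clone has a TRAJ5 alpha chain, and the 10-cell clone has both a TRAJ5 and a TRAJ15 alpha chain.
Group A, beta, all 5 clones: tgcagtgacagggacacagaagtcttcttt
Group A, alpha, 174-cell MOC1 anti-PD-1 clone: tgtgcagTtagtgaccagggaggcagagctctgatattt
Group A, alpha, 31-cell MOC1 anti-CTLA-4 clone: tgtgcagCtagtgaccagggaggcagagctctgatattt
Group B, beta, 21-cell MOC22 anti-PD-1 clone: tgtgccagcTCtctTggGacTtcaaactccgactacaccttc
Group B, beta, 6-cell MOC22 anti-PD-1 clone: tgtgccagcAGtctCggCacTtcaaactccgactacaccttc
Group B, beta, 4-cell MOC22 anti-PD-1 clone: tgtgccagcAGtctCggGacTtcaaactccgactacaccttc
Group B, beta, 5-cell and 3-cell MOC22 isotype clones: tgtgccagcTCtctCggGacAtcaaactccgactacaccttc
Group B, alpha, 21-cell anti-PD-1 and 5-cell isotype clones: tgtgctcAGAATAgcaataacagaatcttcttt
Group C, beta, 11-cell MOC22 anti-PD-1 clone: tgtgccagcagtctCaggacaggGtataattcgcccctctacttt
Group C, beta, 6-cell MOC1 anti-PD-1 clone: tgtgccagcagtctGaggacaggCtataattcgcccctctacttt
Group C, beta, 5-cell MOC1 anti-CTLA-4 clone: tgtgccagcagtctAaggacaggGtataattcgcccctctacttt
Group C, alpha, 11-cell MOC22 anti-PD-1 clone: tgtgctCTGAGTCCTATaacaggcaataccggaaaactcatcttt
Group C, alpha, 6-cell MOC1 anti-PD-1 clone: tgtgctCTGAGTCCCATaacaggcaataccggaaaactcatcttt
Group C, alpha, 5-cell MOC1 anti-CTLA-4 clone: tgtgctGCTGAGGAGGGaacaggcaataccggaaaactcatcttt
Group D, beta, 5-cell MOC1 anti-CTLA-4 clone: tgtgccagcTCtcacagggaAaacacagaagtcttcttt
Group D, beta, 5-cell MOC1E1 anti-CTLA-4 clone: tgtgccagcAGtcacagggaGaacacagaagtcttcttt

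The groups differed in how far they spread over the series. The translation of the group A beta chain was found in 250 cells of MOC1 anti-PD-1 and 78 of MOC1 anti-CTLA-4, in each library with 1 nucleotide sequence, and in 5 cells of MOC1 isotype with 2 nucleotide sequences. It was in no MOC1E1 or MOC22 cell with both chains. The group B translation was found in MOC22 only, in 37 cells with 8 nucleotide sequences with isotype and in 70 cells with 13 nucleotide sequences with anti-PD-1, in its large clones always with TRAV12D-3 and TRAJ31. The 21-cell clone and both isotype clones used TRBV12-2, and the 6-cell and 4-cell clones used TRBV26. Between the 21-cell and the 6-cell clone the beta CDR3 differed by T10A, C11G, T15C and G18C, with the same CDR3 translation from different V segments. The group C translation was found in all 8 libraries, in 1 to 17 cells each, and its 3 large clones used TRBV26 with TRBJ1-6 and TRAJ37. Its beta chains differed by C15G and G24C between the MOC22 and the MOC1 anti-PD-1 clone, and the alpha CDR3s of those clones, from different tumour models, also had the same translation, with T15C between them. Those alpha chains used different V segments, TRAV6-5 in MOC22 and TRAV6-7-DV9 in MOC1 anti-PD-1. The group D translation was found in 8 MOC1 anti-CTLA-4 cells and 6 MOC1E1 anti-CTLA-4 cells, with 1 nucleotide sequence in each. Its large clones also used different V segments, TRBV12-2 in MOC1 and TRBV13-1 in MOC1E1. Over all libraries, 27 of 151 beta sequences of large clones (17.9%; here each chain was counted once per library) and 309 of 2756 of single-receptor cells (11.2%) had a translation found in another library. That difference was not tested, since the libraries hold different numbers of receptors.

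Receptor features could hardly be tested between large clones and single receptors with 6 libraries. CDR3 and junction lengths, the share of clones with a second alpha chain and the use of 19 beta V segments gave 24 features over 6 libraries. In the exact sign-flip permutation test (two-sided, smallest possible p 0.0312) none reached an adjusted p of 0.05, the lowest being 0.25. TRBV13-2 made up 2.92% of large clones against 9.20% of single receptors (means of the 6 libraries), lower in 6 of 6 libraries (exact permutation p 0.0312, adjusted 0.25). TRBV17 was used by 2.14% of single receptors and by no large clone of these libraries, and TRBV3 by 6.04 against 2.41%. A second alpha chain was found in 12.9% of large clones and 21.3% of single receptors, with up to 43.9% of single receptors in a library. This feature depends on the clone rule, since cells whose detected alpha chains differ are not placed in the same clone. A cell with a missed or added alpha chain can thus count as a single receptor. The difference is therefore not read as a property of large clones. The part of droplets with several cells was not tested. Beta CDR3 length averaged 41.8 bases against 41.5.

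Cd8a and Cd8b1 chose the cells, so their levels are no check of the label, for which Cd3e and Cd4 were read. Over the 7 libraries with at least 10 members, the large-clone sums held 1047 to 1439 CPM (UMIs of the gene per 1000000 UMIs of the sum) of Cd8a and 1460 to 2252 CPM of Cd3e, a chain of the T cell receptor complex. Clones in which under 50% of the cells with RNA passed the CD8 gates were 2, 3 and 4 in the MOC1 libraries and gave 2, 3 and 6 members. A Cd4 UMI was found in at most 9.18% of members of any library (MOC1E1 anti-CTLA-4), and there in 42.1% of the cells of the 19-cell clone. RNA sums of members ran from 80141 UMIs (8 cells) to 5028105 UMIs, and median UMIs per member cell from 4808 to 8735.

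The single-receptor cells were a mixture, and this bears on every comparison with them. Between 9.01 and 76.7% of them in a library shared 1 chain with another cell, and 5.41 to 45.6% carried 2 beta chains, both highest in MOC1 anti-CTLA-4. A Cd4 UMI was found in 4.48 to 22.6% of them. Whether these are members of clones with an undetected chain or droplets with more than 1 cell was not tested. Main counts, and some genes, are therefore given a second time against unshared single-receptor cells, which shared no chain, carried 1 beta chain and had no Cd4 UMI (64 to 398 cells per library); this comparison was added after the data were seen, and in it cells with a Cd4 UMI or with more than 1 beta or 2 alpha chains were left out of the large clones too.

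Large-clone cells held less RNA of genes of naive, lymph node homing T cells (Tcf7, Dapl1, Ccr7) than single-receptor cells of the same library. They held more of Prf1, the gene of perforin, of the inhibitory receptors Pdcd1, Lag3 and Havcr2, and of the chemokine Ccl4. UMIs were summed over the cells of each class in each library, and edgeR's quasi-likelihood test with the library as a block and Benjamini-Hochberg adjustment over 8626 genes gave 51 genes higher and 82 lower at an adjusted p of 0.05 or less. These are 1.54% of the genes tested, 0.591% higher and 0.951% lower, and 1586 genes had an unadjusted p under 0.05. The MOC1E1 isotype library did not enter, having 8 members. The count was lowest without MOC1 anti-PD-1 (4 higher, 11 lower) and highest without MOC1 anti-CTLA-4 (99 and 139). Of the 133 genes, 15 and 125 were then called again, and 28 without MOC1 isotype, 43 without MOC1E1 anti-PD-1, 77 without MOC1E1 anti-CTLA-4, 116 without MOC22 isotype and 63 without MOC22 anti-PD-1. All kept their direction in those fits wherever tested. Without the library as a block, 0 genes were called higher and 6 lower, with 727 at an unadjusted p under 0.05. Against unshared single-receptor cells the same test gave 340 higher and 436 lower of 7020 genes, 11.1% in all (4.84% higher and 6.21% lower). In bulk sums like these, fewer cells of a kind and fewer transcripts per cell cannot be told apart.

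Genes of naive and memory T cells were lower in large clones. Of 18 tested members of that list, 11 fell, none rose and the median log2 difference was -1.24, beside -0.00112 over all genes tested; against unshared cells 16 of 18 fell (median -1.81). Leaving out 1 library at a time left 5 to 14 of them called, with medians from -1.50 to -1.02.

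Tcf7 encodes TCF-1, a transcription factor of naive and stem-like T cells. It stood at 28.7, 5.65 and 46.9 CPM in large clones of MOC1 isotype, then anti-PD-1, then anti-CTLA-4, against 137, 105 and 76.1 CPM in single-receptor cells. In MOC1E1 anti-PD-1 and anti-CTLA-4 it stood at 16.3 and 26.7 against 180 and 81.5 CPM, and in MOC22 isotype and anti-PD-1 at 30.3 and 14.3 against 326 and 84.0 CPM. The highest large-clone value, 46.9 CPM in MOC1 anti-CTLA-4, lay below the lowest single-receptor value, 76.1 CPM in the same library (log2 -2.52, SE 0.362, adjusted p 0.00602 by edgeR's quasi-likelihood test, lower in 7 of 7 libraries). Dapl1, a marker of naive CD8 T cells in mice (log2 -5.57), and Nsg2, which is not on the list (log2 -3.79), also fell without overlap of the groups: Dapl1 ran from 0 to 4.44 CPM in large clones and from 4.87 to 264 in single-receptor cells, Nsg2 from 1.57 to 9.62 and from 10.5 to 134.

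Other genes of the list fell with overlapping ranges. They were Klf3, a zinc finger factor (log2 -2.91), Id3, an inhibitor of E proteins kept by memory precursors (-2.32), and Slamf6, a surface receptor of stem-like exhausted cells (-1.07). Each was lower in 7 of 7 libraries and was called whichever library was left out. Calls of Ccr7, the chemokine receptor of lymph node homing (log2 -2.15), S1pr1, the receptor for exit from tissue (-1.31), Bcl2, a survival gene (-1.29), Klf2, which drives S1pr1 (-1.17), and, outside the list, Txk, a kinase of T cells (-1.30), Klra7, an NK cell receptor (-3.84), and Kbtbd11 (-1.22) depended on single libraries. Klf2 was lower in 6 of 7 libraries. Without MOC1 anti-PD-1 all 7 lost their call, at log2 -1.76 for Ccr7, -1.01 for S1pr1, -1.20 for Bcl2, -0.93 for Klf2, -1.39 for Txk, -3.18 for Klra7 and -1.16 for Kbtbd11 (adjusted p 0.0654 to 0.172). Bcl2, Klf2, S1pr1 and Txk also lost it without MOC1 isotype (-1.42, -1.15, -1.26 and -1.29), and Bcl2, Ccr7, Klf2, Klra7, S1pr1 and Txk without MOC1E1 anti-PD-1 (-1.24, -2.09, -1.08, -3.80, -1.24 and -1.26). Without MOC22 anti-PD-1, Bcl2, Ccr7, Klf2, Klra7 and S1pr1 lost it (-1.37, -2.06, -1.12, -3.67 and -1.38), without MOC1E1 anti-CTLA-4 Bcl2, Ccr7 and S1pr1 (-1.36, -2.11 and -1.38), and without MOC22 isotype Ccr7 (-1.70). With clones of 10 or more the calls of Bcl2 (-1.20), Klf2 (-1.12), S1pr1 (-1.24) and Txk (-1.24) were lost, with at least 3 Cd8 UMIs and no Cd4 that of Bcl2 (-1.28), and with at most 5 cells per clone those of Ccr7 (-1.60) and Klra7 (-2.59). All kept their sign in these fits. Ccr7 in large clones was 317 CPM in MOC1 isotype and at most 47.7 CPM in the other 6 libraries. Of the list, Lef1, Il7r, Bach2, Foxo1, Ly6c2, Eomes and Cxcr3 did not pass, with Il7r, the interleukin 7 receptor, at log2 -0.999 (adjusted p 0.0802) and Lef1, a partner of TCF-1, at -1.65 (adjusted p 0.101); against unshared cells both passed (-1.22 and -2.12).

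**Figure D2:**
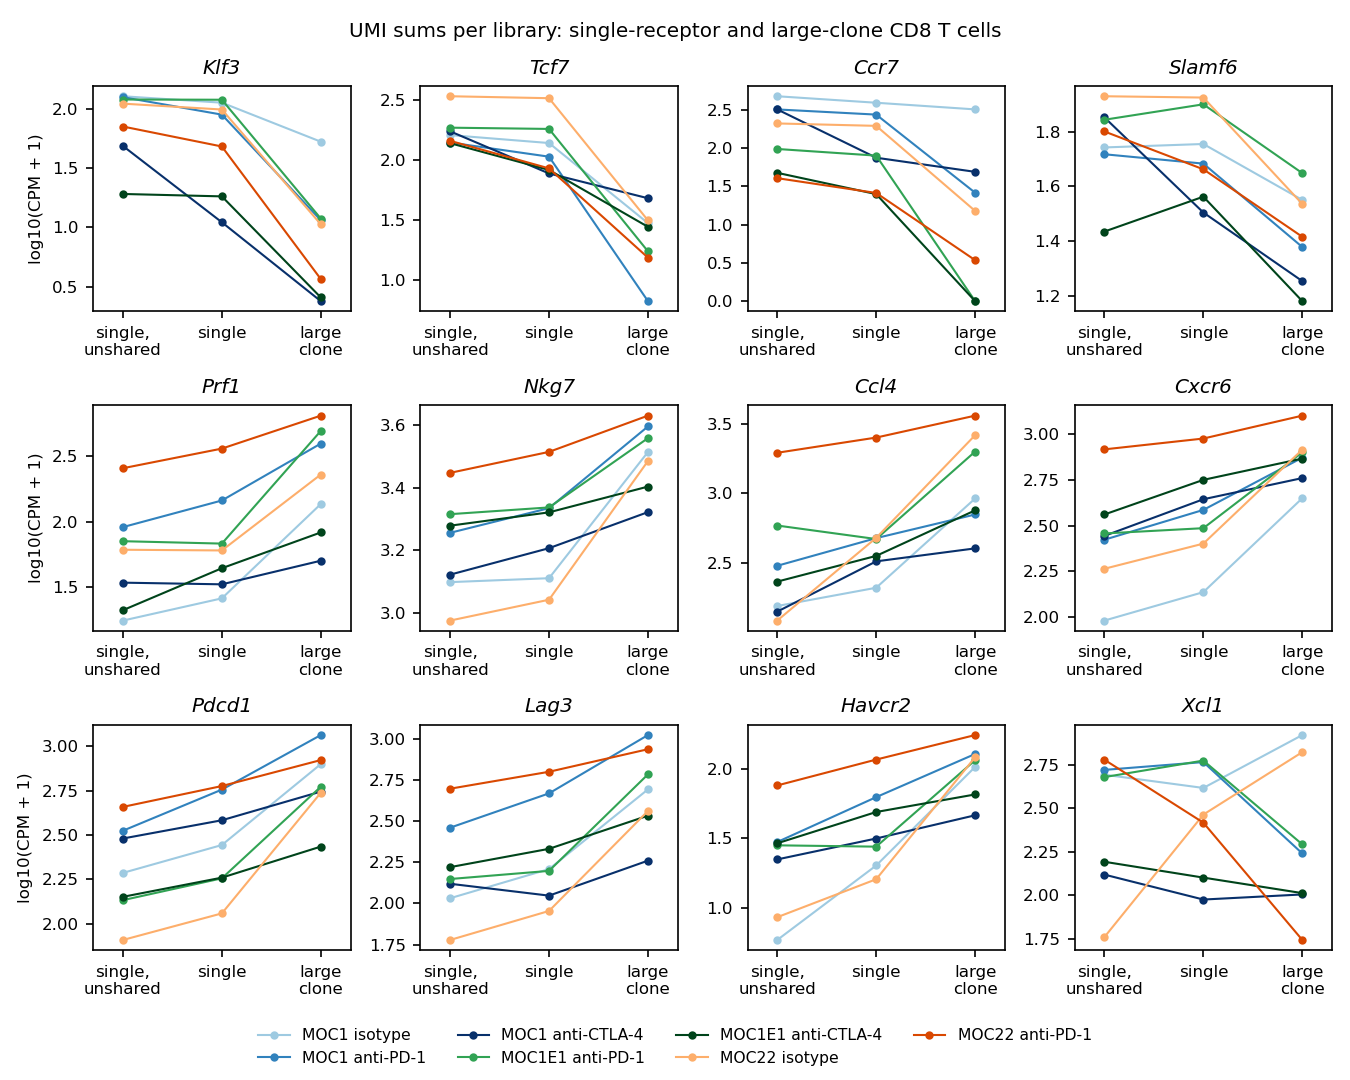
UMI sums of 12 genes as log10(CPM + 1) in unshared single-receptor, all single-receptor and large-clone CD8 T cells, 1 line per library (7 libraries with at least 10 members). The Tcf7 lines end below every single-receptor point, while the lines of Prf1, Pdcd1 and Lag3 climb toward the large clones within each library and start at different heights.

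Genes of killing were higher in large clones in part. Of 21 tested cytotoxic genes 4 rose, none fell and the median log2 difference was 0.42; against unshared cells 10 of 19 rose (median 0.53). Prf1 encodes the pore-forming protein perforin. It stood at 135, 391 and 49.3 CPM in large clones of MOC1 isotype, then anti-PD-1, then anti-CTLA-4, against 25.0, 144 and 32.3 CPM in single-receptor cells. In MOC1E1 anti-PD-1 and anti-CTLA-4 it stood at 489 and 81.6 against 66.9 and 43.1 CPM, and in MOC22 isotype and anti-PD-1 at 227 and 639 against 59.2 and 358 CPM. Prf1 was thus higher in the large clones of 7 of 7 libraries, while the groups overlapped because libraries differed in level (log2 1.44, SE 0.216, adjusted p 0.00858 by edgeR's quasi-likelihood test). Nkg7, a granule protein of cytotoxic cells, ran from 2098 to 4251 CPM in large clones and from 1104 to 3260 in single-receptor cells (log2 0.69). Gzmk, granzyme K, rose by 0.92 and Klrc1, the NKG2A chain of an inhibitory lectin receptor, by 0.93. The calls of Nkg7, Gzmk and Klrc1 were lost without MOC1 isotype (0.60, 0.73 and 0.78), without MOC1 anti-PD-1 (0.67, 0.75 and 0.92) and without MOC1E1 anti-PD-1 (0.70, 1.02 and 0.91). Those of Gzmk and Klrc1 were also lost without MOC22 anti-PD-1 (0.96 and 0.99) and that of Gzmk without MOC1E1 anti-CTLA-4 (1.03), and 1 to 7 genes of the list were called over these fits. Klrc1 lost its call with clones of 10 or more (0.89), Klrc1 and Gzmk lost theirs with at least 3 Cd8 UMIs and no Cd4 (0.82 and 0.80), and Gzmk with clones of 3 or more (0.78), with sums of at least 5 cells (0.82) and without cells of several chains (0.88).

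The granzymes did not move together. Gzmb, granzyme B, was at 633, 1850, 720, 695, 775, 625 and 1907 CPM in large clones of MOC1 isotype, then anti-PD-1, then anti-CTLA-4, MOC1E1 anti-PD-1 and anti-CTLA-4, and MOC22 isotype and anti-PD-1. Single-receptor cells were at 229, 745, 584, 583, 887, 89.3 and 1148 CPM in the same order. Gzmb was higher in 6 of 7 libraries, and the difference did not pass (log2 0.86, adjusted p 0.109); against unshared cells it did (1.51, adjusted p 0.0193). Gzma, granzyme A, was higher in large clones of 4 libraries and lower in 3, at 4298 against 608 CPM in MOC22 isotype and 32.6 against 1162 CPM in MOC1E1 anti-PD-1 (log2 0.25, adjusted p 0.90). Its fitted sign turned without MOC1 isotype (-0.15) or without MOC22 isotype (-0.12).

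Several inhibitory receptors rose. Of 19 tested members of the inhibitory and exhaustion list 5 rose (Pdcd1, Havcr2, Lag3, Tigit and Rgs16), none fell and the median was 0.50; against unshared cells 10 of 19 rose (median 0.89). Pdcd1, the gene of PD-1, stood at 794, 1158 and 555 CPM in large clones of MOC1 isotype, then anti-PD-1, then anti-CTLA-4, against 277, 570 and 383 CPM in single-receptor cells. In MOC1E1 anti-PD-1 and anti-CTLA-4 it stood at 592 and 272 against 180 and 181 CPM, and in MOC22 isotype and anti-PD-1 at 547 and 837 against 114 and 597 CPM. It was higher in 7 of 7 libraries (log2 1.06, SE 0.171, adjusted p 0.0132), by most in MOC22 isotype. Lag3, which binds MHC class II, stood at 493, 1055 and 181 against 161, 466 and 111 CPM in MOC1, in the same treatment order. It stood at 608 and 341 against 157 and 214 CPM in MOC1E1 anti-PD-1 and anti-CTLA-4, and at 364 and 865 against 89.0 and 630 CPM in MOC22 isotype and anti-PD-1 (log2 1.12, SE 0.16, adjusted p 0.00593). Havcr2, the gene of TIM-3, had 45.3 to 173 CPM in large clones (median 114) and 15.1 to 115 CPM in single-receptor cells (median 30.6), with log2 1.25 and adjusted p 0.0359.

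Tigit, another inhibitory receptor, rose by 0.81 on the log2 scale and Rgs16, a regulator of G protein signalling, by 1.11. Lag3 was called whichever library was left out. The others lost their calls without MOC1 isotype (log2 1.00 for Pdcd1, 1.10 for Havcr2, 0.79 for Tigit and 1.02 for Rgs16) and without MOC1 anti-PD-1 (1.09, 1.32, 0.82 and 1.15). Havcr2, Tigit and Rgs16 lost them without MOC1E1 anti-PD-1 (1.19, 0.72 and 1.05), and Tigit without MOC1E1 anti-CTLA-4 (0.89) and without MOC22 anti-PD-1 (0.89), with 1 to 7 genes of the list called over these fits. With clones of 10 or more the calls of Havcr2 (1.19), Tigit (0.73) and Rgs16 (1.04) were lost, and with at least 3 Cd8 UMIs and no Cd4 those of Havcr2 (1.23) and Tigit (0.87). Tox, the gene of a factor found in exhausted T cells, was at 18.9 to 304 CPM in large clones and 15.8 to 123 CPM in single-receptor cells and did not pass (log2 0.66, adjusted p 0.155). Entpd1, the ectonucleotidase CD39, was at 0.94 (adjusted p 0.0582), and passed against unshared cells with 1.47, as did Prdm1, the gene of the factor BLIMP-1, with 1.70. Cd244, listed under an older symbol and so outside the list, rose by 0.90, with the call lost without any 1 of 5 libraries (0.83 to 0.93), all but MOC1 anti-CTLA-4 and MOC22 isotype. Against unshared cells it did not pass (1.11, adjusted p 0.0656), nor with clones of 10 or more (0.70), with at least 3 Cd8 UMIs and no Cd4 (0.91) or with MOC1 hashtags as units (0.64).

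The largest remaining rises followed no single list. Adgrg1, an adhesion G protein-coupled receptor of cytotoxic lymphocytes, stood at 17.3 to 107 CPM in large clones and 5.77 to 53.4 in single-receptor cells (log2 1.49, adjusted p 0.00573, higher in 7 of 7 libraries). Chst12, a sulfotransferase, rose by 0.95, Plek, a substrate of protein kinase C, by 0.97, Wdr95 by 0.96 and 1700017B05Rik by 0.95. The calls of Wdr95 and 1700017B05Rik were lost without MOC1 anti-PD-1 (0.93 and 0.88), and that of Plek without MOC1 isotype, MOC1 anti-PD-1 or MOC1E1 anti-PD-1 (0.92, 1.01 and 0.90).

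Among chemokines and cytokines, 1 of 14 tested genes rose. Ccl4, a chemokine that attracts T cells and monocytes, stood at 918, 703 and 400 CPM in large clones of MOC1 isotype, then anti-PD-1, then anti-CTLA-4 against 207, 474 and 322 CPM. In MOC1E1 anti-PD-1 and anti-CTLA-4 it stood at 2004 and 753 against 467 and 353 CPM, and in MOC22 isotype and anti-PD-1 at 2632 and 3642 against 477 and 2529 CPM. It was higher in 7 of 7 libraries (log2 1.22, SE 0.234, adjusted p 0.0276), and its call was lost without MOC1 isotype (1.08), MOC1 anti-PD-1 (1.35), MOC1E1 anti-PD-1 (1.09) or MOC1E1 anti-CTLA-4 (1.24), and with at most 5 cells per clone (1.04) or MOC1 hashtags as units (0.69). Ccl3, its close relative, was at log2 1.61 (adjusted p 0.0565), Ifng at 0.85 (adjusted p 0.155) and Ccl5 at 0.64 (adjusted p 0.195); against unshared cells Ccl3, Ifng and Csf1 passed (2.59, 1.43 and 1.84) and Ccl5 did not (0.82). Cxcr6, a chemokine receptor of T cells held in tissue, rose by 0.89 (445 to 1258 against 136 to 943 CPM), and Cd69, an early activation antigen that retains cells in tissue, fell (log2 -0.75). Cxcr6 lost its call without MOC1 isotype (0.77), MOC1 anti-PD-1 (0.89) or MOC1E1 anti-PD-1 (0.83), and Cd69 without MOC1 isotype (-0.82), MOC1 anti-PD-1 (-0.67), MOC1E1 anti-PD-1 (-0.67) or MOC22 anti-PD-1 (-0.80), with clones of 10 or more (-0.71) or at most 5 cells per clone (-0.65). Itgae, the integrin chain CD103, was at -0.26 and did not pass (adjusted p 0.734), with 327 against 137 CPM in MOC22 isotype and 0 against 64.7 CPM in MOC1E1 anti-PD-1.

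Cell cycle genes were not called, though all 26 tested were fitted above 0 (median log2 0.50). Dividing cells express these genes together. Mki67, a marker of dividing cells, stood at 27.3 to 209 CPM in large clones and 21.7 to 99.3 CPM in single-receptor cells (log2 0.60, adjusted p 0.406). Cells with a UMI of Mki67 or Top2a made up 19.1, 32.3 and 28.0% of members in MOC1, 31.8 and 30.6% in MOC1E1 anti-PD-1 and anti-CTLA-4 and 23.3 and 21.8% in MOC22. They made up 16.1, 10.8, 19.4, 6.40, 31.2, 5.03 and 11% of unshared single-receptor cells in the same order. Of all single-receptor cells they made up 17.0, 15.9, 35.8, 11.5, 29.8, 7.44 and 17.9%, which in MOC1 anti-CTLA-4 is above the 28.0% of members. Mki67 was lower in large clones of 3 of 7 libraries, with 44.2 against 74.5 CPM in MOC22 anti-PD-1. Median depths ran from 4808 to 7344 UMIs per cell in members and from 5188 to 6942 in unshared single-receptor cells. In all single-receptor cells they ran from 6011 to 8594.5, the highest being MOC1 anti-CTLA-4, where members had 5811. Against unshared cells 6 of 26 rose, among them Cdk1, the kinase of mitotic entry (1.80), and Ccnb1, cyclin B1 (2.11). With these dividing cells left out of both classes, 110 of the 133 genes called in the main comparison were still called.

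A few interferon-stimulated genes fell. Of 26 tested, 3 fell and none rose (median -0.32): Ifi27l2a (log2 -0.55), Rtp4 (-0.78) and Ifit3 (-0.82). Ifi27l2a and Rtp4 were called whichever library was left out, and Ifit3 lost its call without MOC1 isotype (-0.81), MOC1 anti-PD-1 (-0.59), MOC1E1 anti-PD-1 (-0.84) or MOC1E1 anti-CTLA-4 (-0.83). Without dividing cells both Ifi27l2a (-0.33) and Ifit3 (-0.76) lost theirs, as with clones of 10 or more (-0.47 and -0.76), and Ifit3 also with clones of 3 or more (-0.72) or at most 5 cells per clone (-1.10). Against unshared cells 6 of 21 fell. Isg15 was at -0.26 (adjusted p 0.21), and at 0.0039 against unshared cells. Among T cell receptor signal genes, Irf8, a transcription factor, rose by 0.73 and Myc, which drives growth, fell (log2 -1.17), as did Cd69, out of 18. Irf8 and Myc lost their calls without MOC1 isotype (0.61 and -1.17), MOC1 anti-PD-1 (0.74 and -1.08), MOC1E1 anti-PD-1 (0.70 and -1.12) or MOC22 anti-PD-1 (0.80 and -1.29), and Myc without MOC1E1 anti-CTLA-4 (-1.18). They also lost them with clones of 10 or more (0.63 and -1.09), Irf8 without dividing cells (0.70), and Myc with at least 3 Cd8 UMIs and no Cd4 (-1.16) or at most 5 cells per clone (-1.02). None of 15 costimulatory and 14 glycolysis genes was called (medians 0.06 and 0.28), and against unshared cells 3 and 5 rose. Of 15 stress genes Atf3 fell (log2 -1.47), though it was lower in 5 of 7 libraries, and lost its call without MOC1 isotype (-1.33) or MOC22 anti-PD-1 (-1.42), with DESeq2 (-1.25) or with clones by beta chain alone (-1.29). Of 7 tested genes of MHC class II and antigen presentation, Cd86, a ligand of CD28, rose by 0.57, with the call lost without any 1 of the same 5 libraries (0.50 to 0.62), and with clones of 10 or more (0.40) or 3 or more (0.50), sums of at least 5 cells (0.53) or at least 3 Cd8 UMIs and no Cd4 (0.56).

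**Figure D3:**
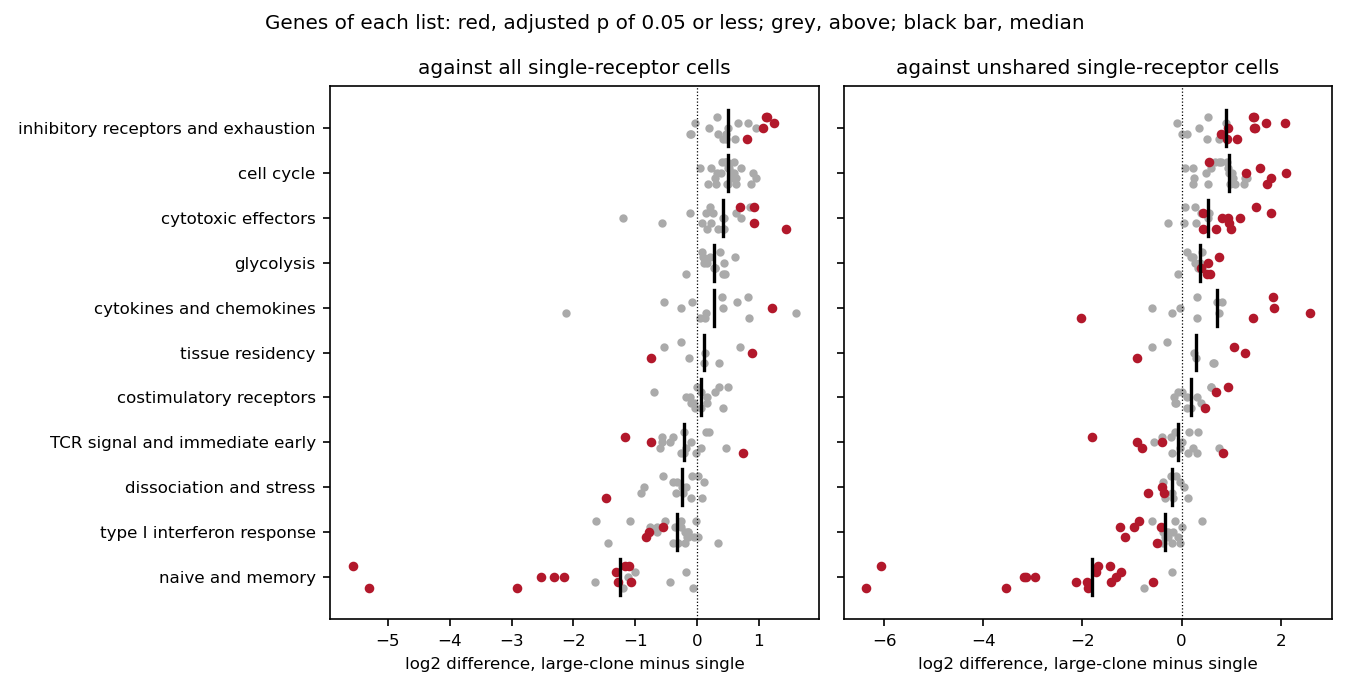
Fitted log2 difference (large-clone minus single-receptor cells) of each tested gene in each list, against all single-receptor cells (left) and unshared ones (right); red points passed an adjusted p of 0.05, and black bars are medians. The naive and memory list lies below 0 in full, with medians -1.24 and -1.81, and the inhibitory list has medians 0.50 and 0.89.

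Markers of other cells differed in level between libraries and moved in part with the classes. Summed macrophage, monocyte and neutrophil markers (16 genes) ran from 185 to 2802 CPM in large clones (median 228) and from 107 to 1195 CPM in single-receptor cells (median 319); the 2802 CPM belong to the 22 cells of MOC1E1 anti-PD-1, where S100a8, S100a9, Csf3r and Cxcr2 were at 0. Summed CD4 and regulatory T cell markers (12 genes) ran from 265 to 987 CPM against 153 to 1366 CPM, with Foxp3 at 0 by the gate, and Cd4 fell (log2 -2.57). Cd4 lost its call without MOC1 anti-PD-1 (-2.39) or MOC1E1 anti-PD-1 (-2.55), and without cells of several chains (-2.08). Ighm, an immunoglobulin gene, fell (log2 -1.58), and lost its call without MOC1 anti-PD-1 (-1.73). Summed B cell markers (9 genes) ran from 15.5 to 185 CPM against 38.4 to 286 CPM, NK cell markers (10 genes) from 129 to 413 against 89.3 to 340 CPM, gamma-delta and innate T cell markers (11 genes) from 28.6 to 505 against 40.7 to 266 CPM, and carcinoma markers (10 genes) from 30.3 to 102 against 13.8 to 74.8 CPM. None of the 3 tested genes each of the macrophage, gamma-delta and carcinoma lists was called. Against unshared cells Fcer1g (-1.97) and Tyrobp (-1.69), signalling adaptors of myeloid and NK cells, fell, and Cst3 (0.40), the gene of cystatin C, and Tcrg-C2 (1.02), a gamma chain constant gene, rose. The part of these cells in the results was not tested, beyond the comparison with cells that lack Cd4.

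Seen by clone size, Tcf7 was lower than in unshared single-receptor cells also in clones of 2 to 4 cells, which the threshold of 5 leaves out. In MOC1 anti-PD-1 it stood at 139 CPM in unshared single-receptor cells, 28.6 CPM in clones of 2 to 4 cells and 3.34 CPM in clones of 5 to 9. In MOC22 anti-PD-1 it stood at 143, 29.9 and 15.5 CPM, and in MOC1 anti-CTLA-4 at 172, 51.8 and 48.0 CPM. Pdcd1 was higher in clones of 2 to 4 and of 5 to 9 than in unshared cells: in MOC1 anti-PD-1 from 334 to 1043 and 1047 CPM, and in MOC22 isotype from 80.1 to 664 and 740 CPM. Just outside and just inside the threshold, in MOC22 anti-PD-1 the 48 cells in clones of 4 held 837 CPM of Prf1 and 987 CPM of Pdcd1, and the 34 in clones of 5 held 578 and 792 CPM. In MOC1 anti-CTLA-4 the 47 cells in clones of 4 held 54.9 and 634 CPM and the 35 in clones of 5 held 81.9 and 852 CPM. These values are descriptions, and clones of different sizes share their library. The unshared cells had passed filters on shared chains, beta chains and Cd4 that were not applied to the clones here. Cells of larger clones with a missed or added alpha chain can count among clones of 2 to 4. Their part in these levels was not tested.

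**Figure D4:**
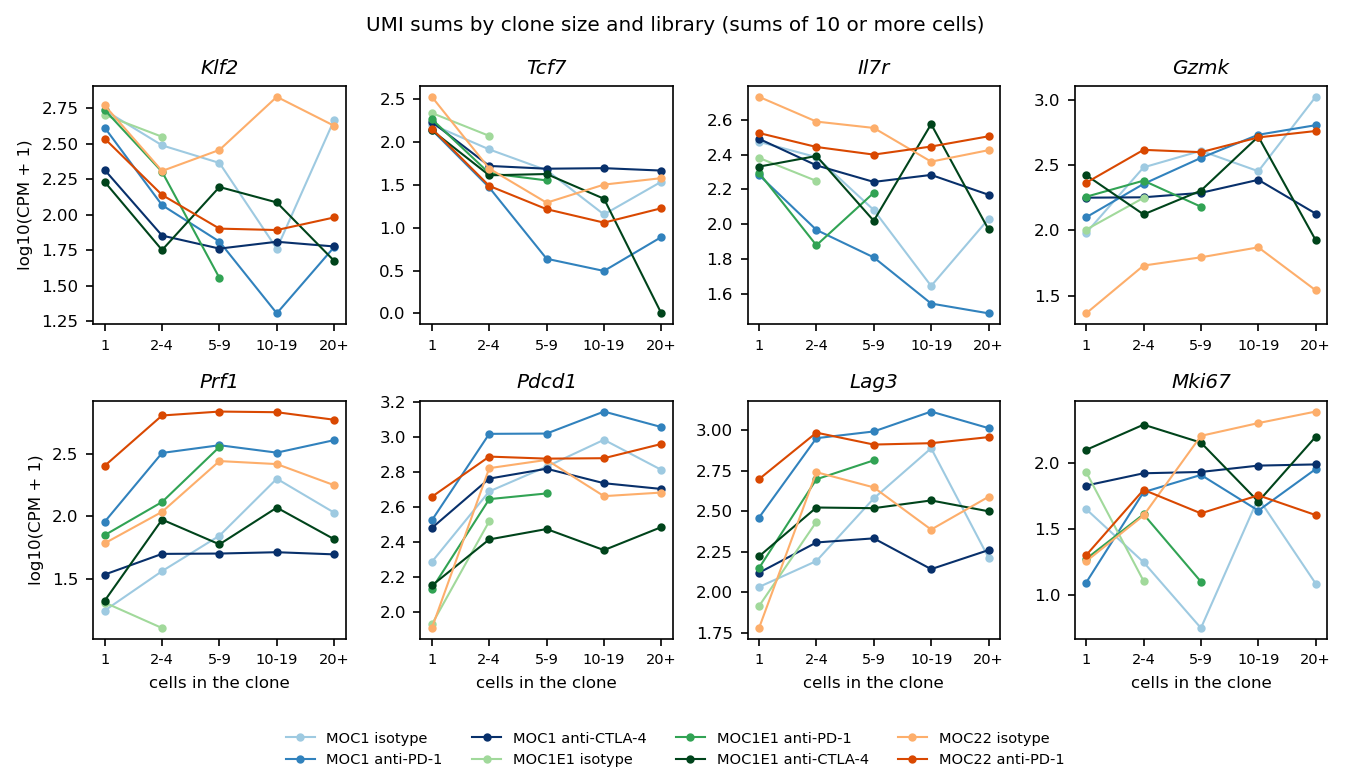
UMI sums of 8 genes as log10(CPM + 1) against the number of cells in the clone (1 with no shared chain, 2-4, 5-9, 10-19, 20 or more), 1 line per library, for sums of at least 10 cells. Only the bin of 1 cell is filtered for shared chains, beta chains and Cd4. The Tcf7 lines drop between 1 cell and 2-4 cells, from 139 to 28.6 CPM in MOC1 anti-PD-1.

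Single clones within 1 library differed widely. The 28 clones of 20 or more members lay in 5 libraries: 2 in MOC1 isotype, 5 in MOC1 anti-PD-1, 11 in MOC1 anti-CTLA-4, 2 in MOC22 isotype and 8 in MOC22 anti-PD-1. Prf1 ran from 107 to 590 CPM over the 5 clones of MOC1 anti-PD-1, from 7.18 to 98.4 CPM over the 11 of MOC1 anti-CTLA-4 and from 243 to 1710 CPM over the 8 of MOC22 anti-PD-1. The highest MOC1 anti-CTLA-4 clone thus lay below the lowest clone of both anti-PD-1 libraries. Tox ran from 76.9 to 334 CPM, from 0 (6 of 11 clones) to 39.7 CPM and from 35.1 to 425 CPM in the same order, and Lag3 from 284 to 1135, from 25.3 to 452 and from 424 to 1810 CPM. Gzma spanned 0 to 1537 CPM over the MOC1 anti-CTLA-4 clones, 3 of them at 0, and 22.2 to 9050 CPM over the MOC22 anti-PD-1 clones. Ccl5 ran from 3528 to 10262 CPM in MOC1 anti-CTLA-4 against 6688 to 34606 CPM in MOC1 anti-PD-1 and 10528 to 38153 CPM in MOC22 anti-PD-1. Each clone is 1 sum, with cells of 1 descent, so no test was made between clones.

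The 2 largest clones of MOC1 isotype, of 21 members each, had unlike profiles. The first held 15.99 CPM of Pdcd1, 1088 CPM of Klf2 and 3822 CPM of Gzma, with Lag3 and Havcr2 at 0. The second held 989 CPM of Pdcd1, 129 CPM of Klf2, 559 CPM of Gzma and 249 CPM of Lag3. Both held much Gzmk (1024 and 1067 CPM) and Ccl5 (19352 and 23590 CPM), and their median depths were 2785 and 4575 UMIs. The 2 largest of MOC22 isotype, of 37 and 30 members, differed in a like way, with 988 and 204 CPM of Pdcd1, 751 and 187 CPM of Lag3, 214 and 535 CPM of Klf2, 437 and 5551 CPM of Gzma, and 1853 and 37.4 CPM of Xcl1. Clone size before the gates reached 58 cells in MOC22 isotype, where the gate on Foxp3 took large-clone cells from 197 to 146. Such pairs of the other libraries are not described.

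Clones that shared a beta chain across treatments also differed in level. In group A, the 174-cell clone of MOC1 anti-PD-1 held 463 CPM of Prf1, 2075 of Gzmb, 273 of Tox and 1135 of Lag3, and the 31-cell clone of MOC1 anti-CTLA-4 held 20.2, 268, 15.2 and 126 CPM. Pdcd1 was at 1212 and 637 CPM in them. These 2 clones differ in library, treatment and alpha chain, which cannot be told apart. Within MOC1 anti-PD-1, the 19-cell clone with this beta chain and a TRAJ5 alpha chain held 3098 CPM of Gzma against 223 CPM in the 174-cell clone, with Prf1 at 511 and 463 CPM. Since a 10-cell clone with the same tag carries both alpha chains, whether the 3 are 1 clone with alpha chains missed in some cells was not tested. In group B, the 21-cell MOC22 anti-PD-1 clone held 919 CPM of Prf1, 382 of Tox and 22.2 of Gzma. The 5-cell isotype clone with the same alpha chain held 245, 0 and 3833 CPM, in a sum of 24523 UMIs. The group B pair differs in treatment and in library alike, which cannot be told apart.

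**Figure D5:**
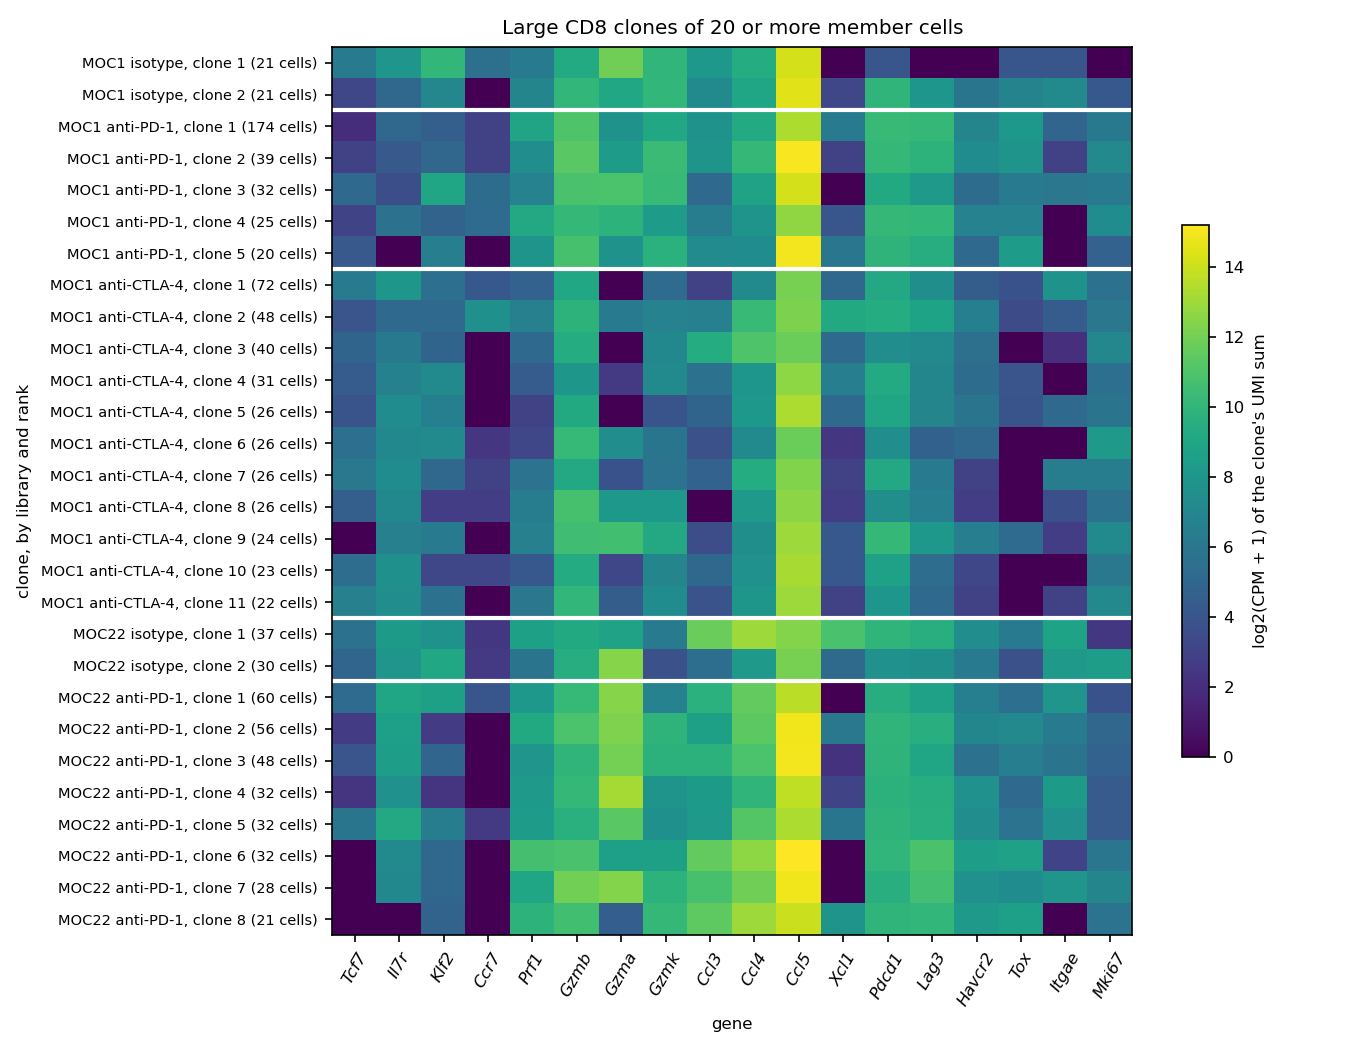
Levels of 18 genes as log2(CPM + 1) in the UMI sums of the 28 clones with 20 or more members, 1 row per clone, grouped by library. MOC1 anti-CTLA-4 clones have low Prf1 (7.18 to 98.4 CPM) and low Tox, and Gzma varies from 0 to 9050 CPM between clones.

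The difference between large-clone and single-receptor cells was compared between treatments. The interaction term of edgeR's quasi-likelihood test, over the 5 libraries with anti-PD-1 or anti-CTLA-4, called 1 of 8827 genes (0.0113%), with 291 at an unadjusted p under 0.05. That gene was Xcl1, the chemokine XCL1 that attracts cross-presenting dendritic cells. Xcl1 was lower in large clones than in single-receptor cells of each anti-PD-1 library: 173 against 584 CPM in MOC1, 196 against 596 CPM in MOC1E1 and 54.4 against 261 CPM in MOC22. With anti-CTLA-4 the classes were close, at 100 against 93.6 CPM in MOC1 and 102 against 126 CPM in MOC1E1. The signed log2 difference, large-clone minus single-receptor, was 1.88 higher with anti-CTLA-4, where it lay near 0, than with anti-PD-1, where it was negative (SE 0.208, adjusted p 0.00548). The call was lost without MOC1 anti-CTLA-4 (1.61, adjusted p 0.891) and without MOC1E1 anti-CTLA-4 (2.02, adjusted p 0.105).

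Among large-clone cells alone, treatments were compared with the model as a block over the same 7 libraries, with 2 residual degrees of freedom. Anti-PD-1 against isotype, seen in MOC1 and MOC22, gave no gene higher and 4 lower of 8220 (0.0487%), with 372 at an unadjusted p under 0.05. They were Xcl1 (log2 -2.87, adjusted p 0.00921), Klf2 (-2.12), Ccr7 (-3.31) and Lmna, the gene of lamin A (71.8 against 18.0 CPM in MOC1, 71.7 against 17.2 in MOC22). Without MOC1 anti-PD-1, Klf2, Ccr7 and Lmna lost their calls (-2.13, -2.43 and -2.02), and Lmna also without MOC1 anti-CTLA-4, MOC1E1 anti-PD-1 or MOC22 anti-PD-1. With sums of at least 5 cells, which admit MOC1E1 isotype, Xcl1 (-4.16, adjusted p 0.101), Klf2 (-1.56) and Lmna (-1.96) lost theirs. Xcl1 was at 836 and 173 CPM in MOC1 isotype and anti-PD-1 and at 666 and 54.4 CPM in MOC22. Klf2 was at 215 and 54.1 CPM and at 450 and 86.4 CPM in the same order. Ccr7 was at 317 and 25.0 CPM in MOC1 and at only 14.1 and 2.43 CPM in MOC22. Single-receptor cells also had less Klf2 with anti-PD-1 (490 and 305 CPM, 547 and 245 CPM) and less Ccr7 (388 and 271 CPM, 193 and 24.8 CPM). In them Xcl1 was at 414 and 584 CPM in MOC1 and 291 and 261 CPM in MOC22. Lmna was at 76.7 and 50.1 CPM and at 8.61 and 23.8 CPM in the same cells and order. The large-clone sums of Xcl1 mix clones of unlike level. In MOC1 anti-PD-1 a 10-cell clone held 3157 CPM of it, against 0 to 79.9 CPM over the 5 clones of 20 or more members. The 2 largest clones of MOC22 isotype also differed in Xcl1, as given above. The part of single clones in the Xcl1 difference was not tested.

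Anti-CTLA-4 against anti-PD-1, seen in MOC1 and MOC1E1, gave 34 genes higher (0.414%) and 24 lower (0.292%) of the same 8220, 0.706% in all. Both contrasts share the anti-PD-1 libraries. Prf1 was lower (log2 -2.75, 49.3 against 391 CPM in MOC1, 81.6 against 489 CPM in MOC1E1) and so was Tox (log2 -3.36, 18.9 against 215 CPM, 36.1 against 304 CPM). Gm156 (log2 -7.70) was at 0.398 against 119 CPM and 0 against 43.4 CPM. Lmna was higher by 4.43 (374 against 18.0 CPM, 29.8 against 0 CPM), Ly6c2, a Ly6C gene, by 2.45 (1405 against 263 CPM, 912 against 147 CPM) and Anxa1, annexin A1, by 3.68 (50.5 against 5.11 CPM, 33.0 against 0 CPM). Single-receptor cells differed in the same direction for Prf1 (32.3 against 144 CPM in MOC1, 43.1 against 66.9 in MOC1E1). Tox (15.8 against 81.6, 28.8 against 73.8) and Lmna (370 against 50.1, 23.0 against 12.2) differed likewise in them. So did Gm156 (0.761 against 20.6, 6.71 against 15.2), Ly6c2 (1212 against 723, 1149 against 1024) and Anxa1 (47.6 against 10.0, 16.3 against 11.4). None of these genes passed the interaction test. C1qb and C1qa, complement genes of macrophages, were lower (log2 -5.97 and -4.73), and their 684 and 548 CPM lay in the 22 cells of MOC1E1 anti-PD-1, whose macrophage markers summed to 2802 CPM; in MOC1 anti-PD-1 they were at 1.08 and 1.88 CPM. Without MOC1 anti-CTLA-4 the calls of Lmna (8.80), Prf1 (-2.40), Tox (-2.89), Ly6c2 (2.81), Gm156 (-9.16) and Anxa1 (8.94) were lost, and without MOC1E1 anti-CTLA-4 those of C1qb (-4.65) and C1qa (-5.15). With sums of at least 5 cells that of Ly6c2 was lost (2.23). The counts were 1 higher and 10 lower without MOC1 anti-CTLA-4 and 246 and 153 without MOC22 isotype. For anti-PD-1 against isotype they were 0 and 1 without MOC1 anti-PD-1 and 110 and 252 without MOC1 isotype.

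In the MOC1 libraries, cells carried 4 hashtags, antibody tags that mark the source of a cell before pooling and whose meaning the labels do not give. Of clones with at least 5 tagged members, 10 of 10 with isotype and 18 of 19 with anti-PD-1 had at least 90% of those members in 1 tag. With anti-CTLA-4 this held for 22 of 54 clones, and 23 of 54 had at least 20% of members in each of 2 tags, always tags 1 and 2. The 174-cell clone of MOC1 anti-PD-1 had 163 cells in tag 1. Fitted on MOC1 alone with each tag of each library as a unit (10 units with at least 10 cells of both classes), the comparison of large-clone with single-receptor cells called 198 genes higher and 380 lower, and 107 of the 133 genes called over libraries were called again. Tags of 1 library share its preparation, and with anti-CTLA-4 tags 1 and 2 share clones, so these units are not independent.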

How the data were processed

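Single-cell RNA and T cell receptors had been sequenced from 8 tumour conditions, 1 library of each kind per condition. The deposited RNA tables hold counts of UMIs per gene and barcode, as their whole numbers show, and the deposited receptor tables list assembled contigs by segment, CDR3 and UMI number. Tools named in the submitters' processing notes are kallisto 0.46.0, Trimmomatic 0.36, DESeq2, Seurat and Cell Ranger 3.0.2, beside the builds mm10 and GRCh38, with no role given. Cells under 300 genes or over 10% mitochondrial UMIs were left out, and no doublet caller was run. UMI counts were summed per library and class, with at least 10 cells, over the 13728 genes shared by the tables. The 113 genes tied to the choice of cells (CD8, Foxp3, receptor segments) were left out of the tests. Sums were tested in edgeR 4.0.16 (R 4.3.3), with low counts filtered by filterByExpr, TMM scaling and the library as a block, because both sums come from 1 library. The fit was checked on simulated sums with changed genes and no differences in gene level between libraries. That check therefore does not cover the spread between these libraries. DESeq2 1.42.0 was an alternative, and scipy 1.17.1 gave intervals and exact permutation tests. Members and gene lists were chosen with earlier results of these data known. Named genes are the 12 largest rises and falls among called genes of at least 20 CPM with 1 direction in all libraries, the 3 of smallest p in each list, and for treatments up to 8 of smallest p. Named clones are the largest of each library and those with a shared beta translation. The rule also held the second largest of each library, which is described for MOC1 isotype and MOC22 isotype only. Other genes and clones named were chosen after their values were seen. The 14 bulk and exome samples were not used. 1 gene that the rule for named genes picks is not reported here.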

Additional observations from a re-analysis of the deposited data

Results flagged for a closer look

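The signed difference of Xcl1, large-clone minus single-receptor, was 1.88 higher on the log2 scale with anti-CTLA-4 than with anti-PD-1 in the interaction test, the 1 gene called of 8827. The classes were close with anti-CTLA-4, and large clones were lower with anti-PD-1. The call was lost without either anti-CTLA-4 library.

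The single large clone of MOC1E1 isotype, 8 cells that did not enter the fits, held 15460 CPM of Xcl1 and 7549 CPM of Ifng, above all libraries in the fits. Xcl1 was found in 7 of the 8 cells, with a median of 94.5 UMIs per cell, the highest cell holding 469 of 1239 UMIs. In the single-receptor cells of that library it was found in 25 of 111 cells and stood at 252 CPM. Ifng, the gene of interferon gamma, was found in 5 of the 8 cells, and 566 of its 605 UMIs lay in 1 cell. Ccl4 was found in 7 of 8 cells, Ccl3 in 6, Cd8a in 7 and Pdcd1 in all 8. With sums of 5 or more cells admitted, so that this clone entered, 140 genes were lower and 74 higher than in single-receptor cells.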

How the results depend on the processing

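Genes higher and lower in large clones numbered 51 and 82. Without a filter on low counts they were 131 and 325, with DESeq2's test 111 and 184, with clones of 3 or more 117 and 226, with clones of 10 or more 21 and 41, and with clones by beta chain alone 136 and 230. They were 84 and 156 without cells of more than 1 beta or 2 alpha chains, 30 and 46 with at least 3 Cd8 UMIs and no Cd4, 95 and 173 without dividing cells, 198 and 380 with MOC1 alone split by hashtag, and 140 were lower with sums of at least 5 cells. With single-receptor cells that shared no chain they were 335 and 421, and 340 and 436 when cells with several chains or Cd4 were also left out, both chosen after seeing the data. Without the replicate block of the library they were 0 and 6, with Nsg2, Tcf7 and Kbtbd11 among them. Leaving out 1 library gave 4 to 99 higher and 11 to 139 lower. DESeq2's size factors, sums of at least 20 cells and clones mostly of CD8 cells kept both counts within 1.5 times. At most 5 cells per clone did so too (42 and 61), but only 77 of the 133 genes were then called again, with 122 of them tested. All 133 genes kept their direction wherever tested. The interaction gave 32 higher and 25 lower without a filter, and 0 to 140 and 0 to 91 with 1 library left out. Anti-PD-1 against isotype gave 38 and 31 without a filter, 1 and 1 with sums of at least 5 cells, and 0 to 110 and 1 to 252 with 1 library left out. Anti-CTLA-4 against anti-PD-1 gave 160 and 111 without a filter, 13 lower with sums of at least 5 cells, and 1 to 246 and 10 to 153 with 1 library left out. No call was involved where a sign turned. With 1 library left out Cdh1 ran from -0.22 to 0.0813 (0.00744 without MOC1E1 anti-PD-1), Gzma from -0.15 to 0.719 (-0.12 without MOC22 isotype), Gzmc from -0.60 to 0.628 and Sfn from -0.00595 to 0.178. Cdh1 was at 0.127 with clones of 10 or more and 0.0657 without dividing cells, and Gzmc at -0.96 with clones of 10 or more. Isg15 was at 0.0039 against unshared cells, Itgae at 0.015 by beta chain alone, Sfn at -0.034 with clones of 3 or more, and Xcl1 at 0.49 with clones of 3 or more. The causes were not tested. Receptor features had a smallest possible p of 0.0312 before adjustment over 24, so that none passed says nothing of stability. Where a treatment is left with 1 library, that library is assumed to vary like the others. The 22 cells of MOC1E1 anti-PD-1 (184139 UMIs) limit what could be detected there.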

Other observations

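Alpha chains were also shared between clones of different libraries. The largest clone of MOC22 isotype (37 members) and a 7-member clone of MOC22 anti-PD-1 had the same alpha sequence, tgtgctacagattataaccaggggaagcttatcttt, and beta chains of equal length that differ by T15C, C16T, G18C and G26C, counted from the first base of the CDR3, with a different translation. A 10-member clone of MOC1 anti-CTLA-4 and a 6-member clone of MOC1E1 anti-CTLA-4 had alpha chains of the same translation that differ by C10A. These pairs were chosen after their values were seen.

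The MOC1E1 anti-CTLA-4 library held the highest share of large-clone beta sequences with a translation found in another library, 5 of 12, against 18 of 135 in its single-receptor cells. Members of clones of 5 to 9 cells in MOC1 isotype held 594 CPM of Ccr7, while its clones of 20 or more held 16.8 CPM.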
